A study of Mus musculus with 53 samples.

Results

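The 10 genes described here encode brakes on MAP kinase signalling: the dual-specificity phosphatases Dusp1, Dusp2, Dusp4, Dusp5, Dusp6, Dusp10 and Dusp16, the Sprouty genes Spry1 and Spry2, and the Sprouty-related gene Spred1. They were taken by symbol, with earlier results of these data known, and all 10 were found among the 23847 loci of each expression table. RNA-seq was performed on bone marrow-derived macrophages (BMDMs), which are bone marrow cells grown into macrophages over 6 days in medium conditioned by L929 cells, a source of macrophage colony-stimulating factor. The mice were 8 to 12 weeks old, on the C57BL/6 background, and either wild type (WT) or lacking Stat6 in the whole body (Stat6-/-). The cells of both genotypes received 20 ng/ml IL-4 for 1, 3, 6 or 24 h or no IL-4 for the same times, and a further control was taken at 0 h. The 53 samples formed 18 groups, with 4 WT samples per group (3 for 24 h of IL-4, where replicate 1 is not analysed here) and 2 Stat6-/- samples per group. The comparisons asked which of these brakes IL-4 switched up or down, when, and whether the change needed STAT6, the transcription factor that the IL-4 receptor activates.

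MAP kinases (ERK, JNK and p38) are switched on by phosphorylation of a threonine and a tyrosine, and the dual-specificity phosphatases remove both phosphates. Sprouty and Spred proteins act further upstream, on the steps between receptor tyrosine kinases, Ras and Raf. Many of these genes are themselves transcribed in response to MAP kinase activity, so that they form negative feedback loops, and in macrophages Dusp1 is best known for limiting p38 and JNK and thereby inflammatory cytokine production.

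The promoters of Dusp1, Dusp2, Dusp5 and Spry2 are shown because these 4 genes fell together within 1 h of IL-4 in WT cells. Each is RefSeq sequence of GRCm38.p6 (mm10), read 5′ to 3′ on the gene's strand, from 250 bases before the start of the transcript up to that start or, for Dusp1 and Dusp5, up to an annotated exon of the gene that reaches into this window. Capitals mark the matches to the cAMP response element TGACGTCA, its core TGACG on either strand, and the CArG box that serum response factor binds.
Dusp1, chr17:26508520-26508722, minus strand: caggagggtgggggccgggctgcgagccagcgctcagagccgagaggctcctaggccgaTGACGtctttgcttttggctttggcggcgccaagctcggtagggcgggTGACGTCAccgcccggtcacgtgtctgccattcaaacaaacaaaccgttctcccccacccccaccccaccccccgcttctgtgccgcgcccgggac
Dusp2, chr2:127335909-127336158, plus strand: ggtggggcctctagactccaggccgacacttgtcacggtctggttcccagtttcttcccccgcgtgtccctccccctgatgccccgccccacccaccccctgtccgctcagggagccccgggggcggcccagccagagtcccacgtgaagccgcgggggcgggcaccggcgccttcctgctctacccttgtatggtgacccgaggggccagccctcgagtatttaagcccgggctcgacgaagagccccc
Dusp5, chr19:53528895-53529108, plus strand: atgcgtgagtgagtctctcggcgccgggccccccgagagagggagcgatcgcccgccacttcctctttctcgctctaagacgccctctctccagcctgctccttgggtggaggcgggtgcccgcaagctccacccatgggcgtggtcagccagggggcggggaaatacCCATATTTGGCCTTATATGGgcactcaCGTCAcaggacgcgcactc
Spry2, chr14:105896820-105897069, minus strand: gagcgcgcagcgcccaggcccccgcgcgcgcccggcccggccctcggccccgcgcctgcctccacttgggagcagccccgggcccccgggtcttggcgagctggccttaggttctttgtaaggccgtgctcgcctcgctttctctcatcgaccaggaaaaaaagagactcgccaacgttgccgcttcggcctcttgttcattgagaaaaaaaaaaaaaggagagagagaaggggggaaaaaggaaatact
The Dusp1 promoter held a complete cAMP response element from -143 to -136, counted back from the transcript start, and a further core at -191. The complete element occurred in 1.55% of the 32851 RefSeq promoter windows of 250 bases, and the core, which lies inside it, in 17.8%. The Dusp5 promoter held a pair of adjacent CArG boxes, from -82 to -73 and from -72 to -63, where 1.47% of windows held at least 1, and a core of the cAMP response element at -55. No match to any motif searched was found in the windows of Dusp2 and Spry2. Among the windows not shown, that of Dusp16, which did not pass at 1 h, held a core at -70. Those of Dusp6, Dusp10, Spry1 and Spred1 held no match. The search also covered STAT sites, spelled TTCNNNNGAA (5.85% of windows) and TTCNNNGAA (7.02%), the AP-1 site TGANTCA (6.75%) and the EGR site GCGTGGGCG (0.536%), on both strands. These had no match in the windows of the 9 members present in the RefSeq promoter table, all except Dusp4. A match describes letters in the sequence only, as does the lack of one.

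Expression is given as FPKM, a count of sequenced fragments corrected for transcript length and for the mapped fragments of the sample, which can be compared between genes. Sums of FPKM per sample ran from 385888.9 to 464914.9, the number of loci at 1 FPKM or more from 10017 to 10380, and relative depth from 0.707 to 1.554 of the median sample, with a median of 1.0 in WT and 1.007 in Stat6-/-. The absolute depth is unknown. Stat6 was at 58.69 to 90.62 FPKM in the 35 WT samples and at 14.26 to 24.02 in the 18 Stat6-/- samples, so its transcript was reduced but not lost. Macrophage markers were present, with 7 of the 8 listed found and all 7 at 1 FPKM or more in every sample. Of the 4 T cell markers listed, Cd3e, Cd3g and Cd8a stayed below 1 FPKM in every sample, while Cd4 was at 0.738 to 15.5 FPKM. Defining markers of B cells and stromal cells also stayed below 1 FPKM, whereas the 3 neutrophil markers found were at 1 FPKM or more in every sample. In bulk RNA, fewer cells of a type and less RNA per cell cannot be told apart.

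In unstimulated WT macrophages at 0 h, the order of the levels was led by Spred1 at 34.4 ± 6.04 FPKM and Dusp1 at 32.1 ± 5.25 (SD, n = 4, as for all 0 h values here), whose samples overlapped. Dusp6, the cytoplasmic phosphatase of ERK, followed at 11.8 ± 1.78 FPKM, and Dusp4 at 6.28 ± 1.07. Dusp16 at 3.95 ± 0.901 FPKM and Spry2 at 3.88 ± 1.11 also overlapped. The lowest were Dusp2 at 1.63 ± 0.162 FPKM, Dusp10 at 1.14 ± 0.178, Dusp5 at 0.671 ± 0.24 and Spry1 at 0.0256 ± 0.0131. After 1 h of IL-4, Dusp4 had the highest mean at 47.0 ± 2.57 FPKM (SD, n = 4), its samples overlapping those of Spred1 at 40.4 ± 5.44, and Dusp1 had moved to the fourth place at 5.92 ± 0.927.

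**Figure D1:**
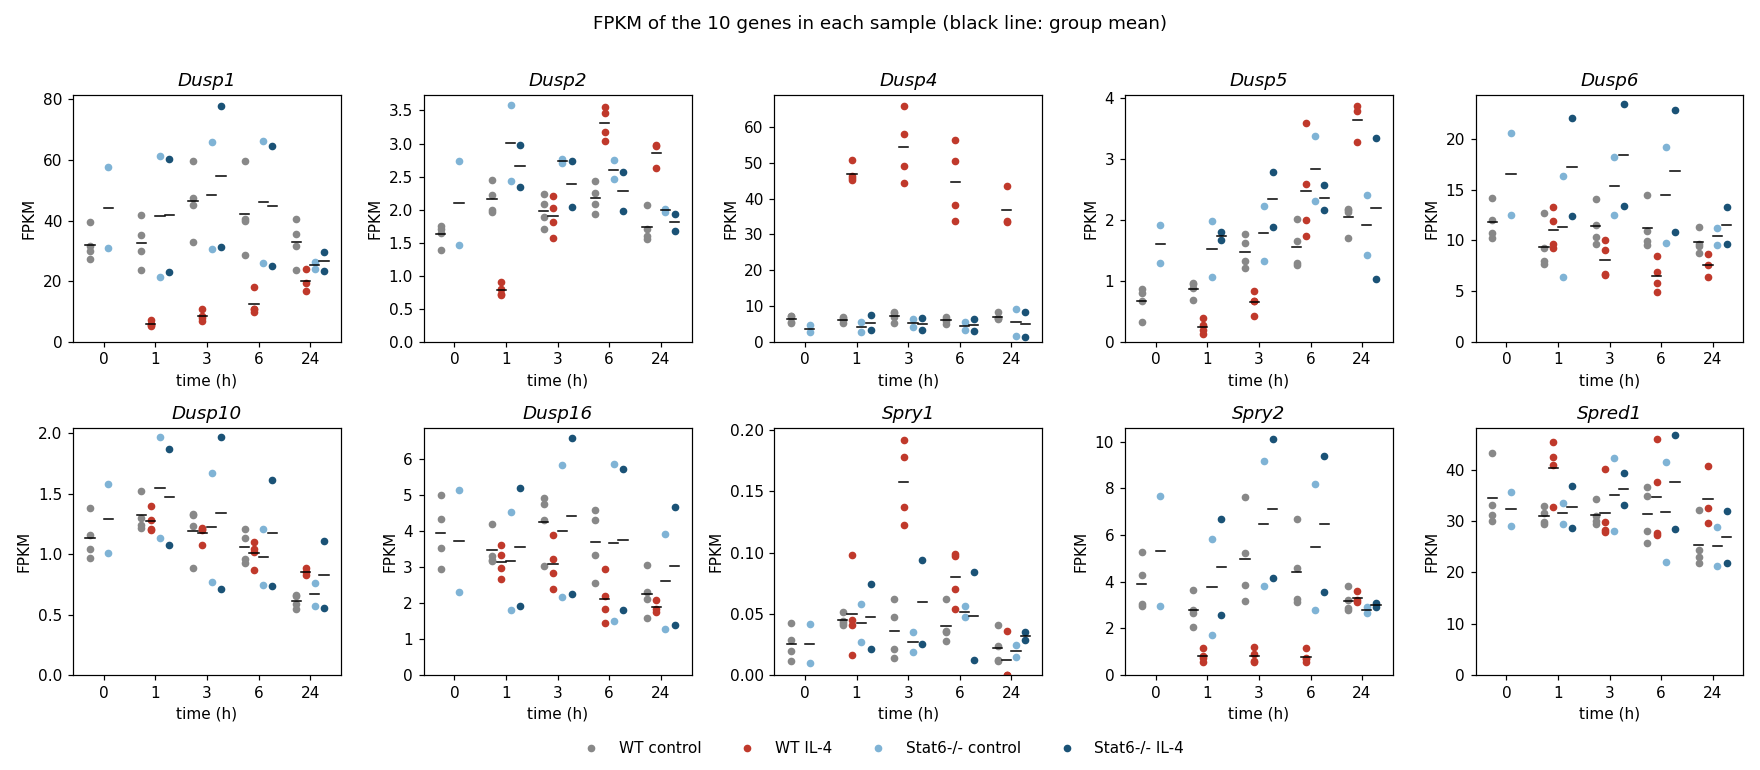
FPKM (vertical axis, starting at 0) of each of the 10 genes against time in h, with 1 point per sample and a black line at each group mean; grey is WT control, red WT with IL-4, light blue Stat6-/- control and dark blue Stat6-/- with IL-4. The red points of Dusp4 lie between 33.4 and 65.7 FPKM at all 4 times, above every other point, while those of Dusp1 and Spry2 lie below every WT control of their time at 1, 3 and 6 h.

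Changes were tested with limma on log2(FPKM + 1), on which scale every log2 change is given. This scale understates the changes of low genes. A gene passed the test at an adjusted p under 0.05 (Benjamini-Hochberg over all loci tested) and was called where the change was also at least 2-fold. Of the 10 members, 9 reached 1 FPKM in at least 1 sample and were tested, and Spry1 did not. In WT, 1 of the 9 members passed as higher after 1 h of IL-4 (5.67% of the 11146 loci tested) and 4 passed as lower (3.72% of loci). At 3 h, 1 passed as higher (16.4% of loci) and 3 as lower (12.5%). At 6 h, 3 passed as higher (22.0% of loci) and 3 as lower (19.2%). At 24 h, 3 passed as higher (23.4% of loci) and 0 as lower (31.6%); the number lower at an unadjusted p under 0.05 was also 0. With the 2-fold threshold, 3 of the 9 were called at 1 h (1.49% of loci), 3 at 3 h (3.88%), 3 at 6 h (5.54%) and 1 at 24 h (8.5%). The called members were Dusp1, Dusp4 and Spry2 at 1, 3 and 6 h and Dusp4 at 24 h. The median log2 change of the 9 was -0.11, -0.36, -0.03 and 0.20 at the 4 times, beside medians over all loci of -0.016, 0.009, -0.000 and -0.069.

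Dusp1 (chromosome 17, 26505591 to 26508472, minus strand, mm10), the nuclear phosphatase of p38 and JNK, fell at once and came back slowly. The WT controls at 1 h had 35.3, 41.8, 30.1 and 23.6 FPKM, and the samples with IL-4 had 5.77, 7.24, 5.58 and 5.09. All 4 treated samples thus lay far below all 4 controls, a 5.52-fold difference of the means and a log2 change of -2.26 ± 0.33 (SE, adjusted p = 1.59e-06). At 3 h the controls had 47.3, 59.7, 45.2 and 33.0 FPKM and the treated samples 8.35, 10.7, 8.01 and 6.73 (log2 change -2.31 ± 0.33, adjusted p = 3.72e-07). At 6 h the controls had 40.5, 59.8, 39.9 and 28.8 FPKM and the treated samples 10.9, 18, 10.9 and 9.71 (log2 change -1.68 ± 0.33, adjusted p = 5.93e-05). The treated samples had begun to rise by 6 h but still did not overlap the controls. At 24 h they had 23.9, 19.5 and 16.8 FPKM (replicates 2 to 4) beside 31.5, 40.4, 35.4 and 23.8 in the controls, so that the groups overlapped by 1 sample on each side, and the log2 change of -0.67 (95% interval -1.39 to 0.05) did not pass (adjusted p = 0.107). In a fit of only the samples compared it did (adjusted p = 0.0129). With the replicate number added to the fit (the replicate block), the change at 24 h also passed (adjusted p = 0.000144). Each treated sample at 24 h was at 0.551 to 0.705 of the control with its number, which was not taken as a pairing at that time. Where same-numbered samples were compared at 3 h, the treated level was 0.177 to 0.204 of its control, and at 6 h 0.269 to 0.337.

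Dusp4 (chromosome 8, 34807610 to 34819894, plus strand), a nuclear phosphatase that acts on ERK and JNK, moved the opposite way and stayed there. The WT controls at 1 h had 5.27, 6.82, 6.13 and 6.51 FPKM and the samples with IL-4 had 45.1, 50.7, 45.8 and 46.2. The groups were far apart, with a 7.59-fold difference of the means and a log2 change of 2.74 ± 0.31 (adjusted p = 5.78e-09). At 3 h the treated samples had 58.1, 65.7, 49.0 and 44.4 FPKM and the controls 8.02, 8.33, 6.89 and 5.33 (7.6-fold, adjusted p = 1.71e-09). At 6 h they had 50.6, 56.4, 38.1 and 33.7 FPKM beside 6.49, 6.8, 5.09 and 5.8 (7.4-fold, adjusted p = 2.91e-09). At 24 h they had 43.6, 33.7 and 33.4 FPKM beside 6.63, 6.58, 6.5 and 8.45 (5.24-fold, log2 change 2.23 ± 0.33, adjusted p = 5.07e-07). No treated sample came near a control at any of the 4 times. The ratio of Dusp4 to Dusp1 FPKM, given as a description, was 0.114 to 0.355 in the 20 WT controls, 7.01 to 9.08 after 1 h of IL-4, 6.12 to 6.95 after 3 h, 3.14 to 4.64 after 6 h and 1.73 to 1.98 after 24 h. It was 0.0414 to 0.383 in the 18 Stat6-/- samples.

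Dusp2 and Dusp5, both nuclear and inducible, first fell and later rose, each by less than 2-fold on the tested scale. In FPKM, the means with and without IL-4 at 1 h differed 2.76-fold for Dusp2 and 3.57-fold for Dusp5. Dusp2 (chromosome 2, 127336159 to 127338377), a phosphatase of activated leukocytes, had 2.45, 2.22, 1.96 and 2.0 FPKM in the WT controls at 1 h and 0.801, 0.723, 0.701 and 0.9 with IL-4 (log2 change -0.83 ± 0.10, adjusted p = 2.03e-08). The groups did not overlap. At 3 h they did, with 1.7 to 2.24 FPKM in the controls and 1.57 to 2.21 with IL-4 (log2 change -0.04, 95% interval -0.24 to 0.16, adjusted p = 0.835). At 6 h Dusp2 had 3.04, 3.46, 3.55 and 3.17 FPKM with IL-4 and 2.09, 2.44, 2.25 and 1.93 without (log2 change 0.44 ± 0.10, adjusted p = 0.00032). At 24 h it had 2.63, 2.96 and 2.98 FPKM beside 2.07, 1.55, 1.71 and 1.6 (log2 change 0.50 ± 0.11, adjusted p = 0.000123). Every treated sample was then above every control of its time, the reverse of the order at 1 h.

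Dusp5 (chromosome 19, 53529318 to 53541322), a phosphatase specific for ERK, had 0.968, 0.957, 0.878 and 0.682 FPKM in the WT controls at 1 h and 0.194, 0.387, 0.275 and 0.12 with IL-4 (log2 change -0.59 ± 0.17, adjusted p = 0.016). Without IL-4 replicate 4 at 1 h the adjusted p was 0.0628. At 3 h the controls had 1.78, 1.62, 1.32 and 1.21 FPKM and the treated samples 0.665, 0.829, 0.426 and 0.666 (log2 change -0.59 ± 0.17, adjusted p = 0.00592). The treated mean at 3 h, 0.646 FPKM, was near the WT mean of 0.671 at 0 h, while the control mean at 3 h was 1.48. The groups were apart at both 1 and 3 h. At 6 h they overlapped, with 2.6, 3.6, 1.74 and 2.0 FPKM against 1.27, 2.02, 1.66 and 1.29 (log2 change 0.43 ± 0.17, adjusted p = 0.0402), and the pass was lost without any 1 of 5 of the 8 libraries, namely IL-4 replicates 1 and 2 and control replicates 1, 3 and 4 (adjusted p 0.0526 to 0.21) and in a fit of only the samples compared (0.0605). At 24 h they were apart again, with 3.87, 3.79 and 3.28 FPKM against 2.16, 2.19, 2.14 and 1.7 (log2 change 0.61 ± 0.18, adjusted p = 0.00465). An exon of Dusp5 overlaps an exon of the antisense gene AC137853.2, and strand-specific counting is not stated, so reads of the pair cannot be told apart.

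In the fit over all samples, Dusp6 (chromosome 10, 99263231 to 99267489), the cytoplasmic phosphatase of ERK, passed in WT at 6 h and at no other time. At 6 h the controls had 10.9, 14.5, 9.91 and 9.49 FPKM and the samples with IL-4 had 6.89, 8.41, 5.84 and 4.94 (log2 change -0.70 ± 0.24, adjusted p = 0.0165). The groups did not overlap, but the pass was lost without IL-4 replicate 4 (adjusted p = 0.0643) or control replicate 2 (0.0721). It was kept with the replicate block (adjusted p = 3.16e-07) and in a fit of only the samples compared. At 3 h Dusp6 had 9.01, 10.03, 6.57 and 6.65 FPKM with IL-4 and 11.5, 14.1, 9.63 and 10.3 without (log2 change -0.46, 95% interval -0.94 to 0.02, adjusted p = 0.161). The adjusted p was 0.000316 with the replicate block and 0.039 in a fit of only the samples compared. Each treated sample at 3 h was at 0.643 to 0.783 of the control with its number, and at 6 h at 0.52 to 0.634. At 1 h the log2 change was 0.23 (95% interval -0.26 to 0.71) and at 24 h -0.34 (-0.86 to 0.18), neither of which passed. The change at 24 h did pass in a fit of only the samples compared (adjusted p = 0.0272) and with the replicate block (0.00876).

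The phosphatases of JNK and p38, Dusp10 and Dusp16, did not pass in WT at any time in the fit over all samples. Dusp16 had 4.29, 4.58, 3.34 and 2.54 FPKM in the controls at 6 h and 2.18, 2.93, 1.84 and 1.45 with IL-4, with overlap (log2 change -0.59, 95% interval -1.24 to 0.05, adjusted p = 0.133). Its 4 treated samples were each at 0.508 to 0.64 of the control with the same number, and the adjusted p was 2.02e-08 with the replicate block and 0.0222 in a fit of only the samples compared. At 3 h the same ratio for Dusp16 was 0.659 to 0.794 (log2 change -0.36, adjusted p = 0.469, or 0.00017 with the block). Dusp10 had 0.590, 0.663, 0.656 and 0.544 FPKM in the controls at 24 h and 0.851, 0.889 and 0.825 with IL-4. These did not overlap, yet the log2 change of 0.20 (95% interval -0.09 to 0.50) did not pass (adjusted p = 0.241, or 0.0108 in a fit of only the samples compared and 0.0185 with the block). From 1 to 6 h its log2 changes were between -0.03 and -0.00.

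Spry2 (chromosome 14, 105891947 to 105896819, minus strand), an inhibitor of receptor tyrosine kinase signalling to ERK, was lower with IL-4 at 1, 3 and 6 h, as Dusp1 was. Its treated means stayed level over these times, at 0.816, 0.822 and 0.787 FPKM, whereas those of Dusp1 rose (5.92, 8.44 and 12.4). The WT controls at 1 h had 2.79, 3.64, 2.65 and 2.05 FPKM and the samples with IL-4 had 0.577, 1.15, 0.726 and 0.807 (log2 change -1.05 ± 0.31, adjusted p = 0.019). This pass was lost without IL-4 replicate 1 (adjusted p = 0.0629) or control replicate 2 (0.0803). At 3 h Spry2 had 5.24, 7.65, 3.84 and 3.18 FPKM in the controls and 0.898, 1.22, 0.559 and 0.613 with IL-4, a 6.06-fold difference of the means (log2 change -1.67 ± 0.31, adjusted p = 3.28e-05). At 6 h it had 4.58, 6.68, 3.24 and 3.13 FPKM beside 0.739, 1.15, 0.576 and 0.682 (5.6-fold, log2 change -1.56 ± 0.31, adjusted p = 6.49e-05). The groups were apart at all 3 times. At 24 h they overlapped entirely, with 2.79, 3.83, 3.2 and 2.86 FPKM in the controls and 3.59, 3.14 and 3.21 with IL-4 (log2 change 0.05, 95% interval -0.62 to 0.72, adjusted p = 0.906).

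Spry1, its relative, was at most 0.192 FPKM in every sample. With IL-4 for 3 h in WT it had 0.192, 0.123, 0.178 and 0.137 FPKM, above the 0.0136, 0.0621, 0.0478 and 0.0215 of the controls. Without the filter on low values this gave a log2 change of 0.16 (adjusted p = 9.75e-07), and a Spry1 exon overlaps an exon of Gm42922 on the opposite strand.

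Spred1, which holds back the activation of Raf, was the highest of the 10 genes at 0 h and did not pass in WT at any time in the fit over all samples. At 1 h it had 41.0, 45.4, 32.7 and 42.5 FPKM with IL-4 and 29.5, 31.6, 29.8 and 32.9 without (log2 change 0.36, 95% interval -0.01 to 0.74, adjusted p = 0.268). At 24 h it had 40.8, 32.5 and 29.6 FPKM beside 24.3, 32.2, 21.8 and 23.0 (log2 change 0.43, 95% interval 0.02 to 0.83, adjusted p = 0.0674). Both times the groups overlapped by 1 control. In fits of only the samples compared Spred1 passed at 1 h (adjusted p = 0.0432) and at 24 h (0.0383), and at 24 h also without control replicate 2 (0.0291). Each treated sample was above the control with its number, at 1.1 to 1.43 times its level at 1 h and 1.27 to 1.49 times at 24 h. With the replicate block Spred1 passed at both times (adjusted p 0.00919 and 0.00103), but the replicate number was not taken as a pairing there.

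**Figure D2:**
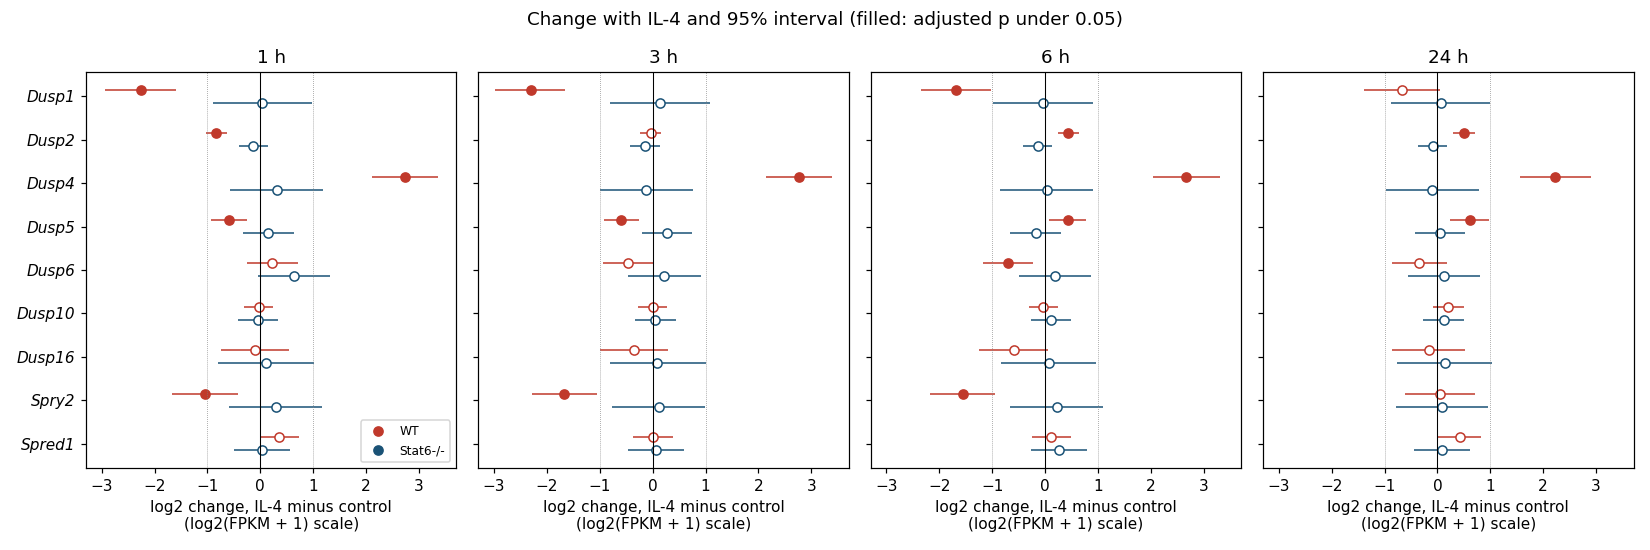
Log2 change with IL-4 on the log2(FPKM + 1) scale (horizontal axis) of the 9 tested genes at each time, in WT (red) and Stat6-/- (blue), with 95% intervals; filled points passed at an adjusted p under 0.05 and dotted lines mark a 2-fold change. Filled points occur in WT only, from -2.31 for Dusp1 at 3 h to 2.76 for Dusp4 at 3 h.

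Whether the WT response at 24 h differed from that at 1 h was tested directly, in a comparison added after the values were seen. The difference passed as higher for 4 of the 9 members (19.5% of loci): Dusp1 by 1.59 ± 0.48 on the log2 scale (adjusted p = 0.00738), Dusp2 by 1.33 ± 0.14 (1.75e-09), Dusp5 by 1.20 ± 0.25 (0.000149) and Spry2 by 1.11 ± 0.45 (0.044). These are the members that fell at 1 h, and their place among those tested was known when the comparison was added. For Spry2 the pass was lost in 12 of the 15 fits without 1 library (adjusted p 0.0536 to 0.0867), all except those without IL-4 replicate 2 or control replicate 4 at 1 h or control replicate 2 at 24 h. The difference for Dusp4 was -0.51 (95% interval -1.42 to 0.41, adjusted p = 0.37), and it passed in a fit of only the samples compared (0.00923).

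Markers of cell types, macrophages included, moved as well in WT. Between IL-4 and control the summed levels of the 8 marker lists all overlapped at 1 and 3 h. At 6 h the T cell list did not overlap, at 2.07 to 3.45 FPKM with IL-4 and 4.54 to 8.07 without, and at 24 h 4 lists did not. Those at 24 h were the macrophage list, at 2689 to 2712 FPKM with IL-4 and 3387 to 3892 without, the neutrophil list, at 88.2 to 119 and 197 to 263, the T cell list, at 0.738 to 1.37 and 8.03 to 15.5, and the proliferation list, at 8.48 to 15.3 and 17.8 to 37.6. In the T cell list the level was that of Cd4, with Cd3e at 0 FPKM in all 7 WT samples of 24 h. With 2 samples per group, some lists did not overlap in Stat6-/- either. These were the macrophage list at 1 and 3 h, the neutrophil and the mast cell and basophil lists at 6 h, and the stromal and erythroid lists at 24 h. The part of the WT shifts in the changes of the brakes at 6 and 24 h was not tested.

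In Stat6-/- cells none of the 9 members passed at 1, 3, 6 or 24 h, where 0.0% of loci did in limma. At an unadjusted p under 0.05 there were 0 members at each time. The shares of loci were 0.458%, 1.18%, 0.79% and 0.332% at 1, 3, 6 and 24 h, so low that 0 of 9 members says little. With Tukey's adjustment or the replicate block there were also 0 members. The Stat6-/- Dusp1 values at 1 h were 21.5 and 61.2 FPKM without and 23.0 and 60.4 with IL-4, so that each replicate kept its own level. Those of Dusp4 were 5.39 and 2.71 FPKM without and 7.36 and 3.38 with IL-4. Spry2 at 3 h had 3.8 and 9.16 FPKM without and 4.15 and 10.1 with IL-4. The log2 changes of the 9 members lay between -0.18 and 0.64, the highest being Dusp6 at 1 h (6.36 and 16.3 FPKM without, 12.4 and 22.1 with IL-4, 95% interval -0.04 to 1.32). With 2 samples per group the intervals were wide, from -0.90 to 0.98 for Dusp1 at 1 h and from -0.57 to 1.19 for Dusp4.

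The difference between the WT and the Stat6-/- response was tested as an interaction. It passed for 3 of the 9 members at 1 h (3.36% of loci), 4 at 3 h (11.2%), 4 at 6 h (16.5%) and 2 at 24 h (27.0%). For Dusp4 it was 2.43 ± 0.53, 2.89 ± 0.53, 2.65 ± 0.53 and 2.33 ± 0.55 on the log2 scale at the 4 times (adjusted p 0.00284, 0.00011, 0.000299 and 0.00131). For Dusp1 it was -2.30 ± 0.57, -2.45 ± 0.57 and -1.64 ± 0.57 at 1, 3 and 6 h (0.0112, 0.0022 and 0.0412) and -0.73 at 24 h (95% interval -1.92 to 0.45, adjusted p = 0.371). Spry2 differed by -1.79 ± 0.53 at 3 h and -1.78 ± 0.53 at 6 h (0.0198 and 0.0155), and the -1.34 at 1 h did not pass (0.253). Dusp2 differed by -0.70 ± 0.17 at 1 h, 0.58 ± 0.17 at 6 h and 0.59 ± 0.17 at 24 h (0.0088, 0.0126 and 0.00966), and Dusp5 by -0.86 ± 0.29 at 3 h (0.0493). With the replicate block, Dusp6 and Dusp16 also passed at 3 h (adjusted p 0.00362 and 0.00967) and at 6 h (0.000131 and 0.000116), as did Dusp5 at 6 h (0.0162). The block then had 6 of the 9 members at 3 h and 7 at 6 h, beside 2381 and 3362 of the 11146 loci.

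Several of these passes were lost when 1 Stat6-/- library was left out of the fit without the block, which set the remaining sample of its group, assumed to vary like the other groups, against the mean of 2 samples of unequal level. For Dusp1 the adjusted p rose to 0.277, 0.0667 and 0.337 at 1, 3 and 6 h without the IL-4 replicate 2 of that time, and to 0.317, 0.0574 and 0.356 without the control replicate 1. For Spry2 it rose to 0.238 and 0.194 at 3 and 6 h without IL-4 replicate 2 and to 0.241 and 0.225 without control replicate 1. With the replicate block and all samples, the adjusted p at 3 and 6 h was 1.73e-10 and 6.75e-07 for Dusp1 and 7.52e-06 and 6.41e-06 for Spry2. Over the 8 same-numbered pairs of Stat6-/- samples, the level with IL-4 was 0.966 to 1.18 of the control for Dusp1, 1.07 to 1.51 for Spry2 and 0.768 to 1.36 for Dusp4. For Dusp4 the adjusted p rose to 0.0824 at 1 h and 0.0888 at 24 h without IL-4 replicate 2 and to 0.0719 and 0.096 without control replicate 1, and at 3 and 6 h it passed without any 1 library. For Dusp2 it rose to 0.13 and 0.202 at 1 h without IL-4 replicate 1 or control replicate 2, to 0.124 and 0.0734 at 6 h without IL-4 or control replicate 1, and to 0.0717 at 24 h without IL-4 replicate 2. The passes of Dusp1 at 6 h and Dusp5 at 3 h were each lost in 8 of the 12 fits without 1 library, WT libraries included (adjusted p 0.0527 to 0.356 and 0.054 to 0.308). In a fit of only the samples compared, the passes were lost for Dusp1 at 1 and 6 h (adjusted p 0.0922 and 0.116), Spry2 at 3 and 6 h (0.0675 and 0.0618), Dusp2 at 1 h (0.0699) and Dusp4 at 24 h (0.0855).

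The Stat6-/- replicates stood apart from each other, at these genes and beyond. Over all loci, deviations of same-numbered treated and control Stat6-/- samples from their group means correlated by 0.791 to 0.9. In each of the 9 Stat6-/- groups, replicate 2 was the higher one for Dusp1, Dusp6, Dusp10, Dusp16 and Spred1, and replicate 1 the higher one for Dusp4 and Dusp5. The ratio of replicate 2 to replicate 1 was 2.23 to 3.91 for Dusp16, 1.1 to 2.85 for Dusp1 and 0.912 to 3.42 for Spry2. It was 0.171 to 0.663 for Dusp4. WT replicate 2 was likewise the highest sample in all 9 WT groups for Dusp1, Dusp6, Dusp16 and Spry2, with and without IL-4. At these 4 genes, then, the highest treated and the highest control sample carried the same number at each time.

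**Figure D3:**
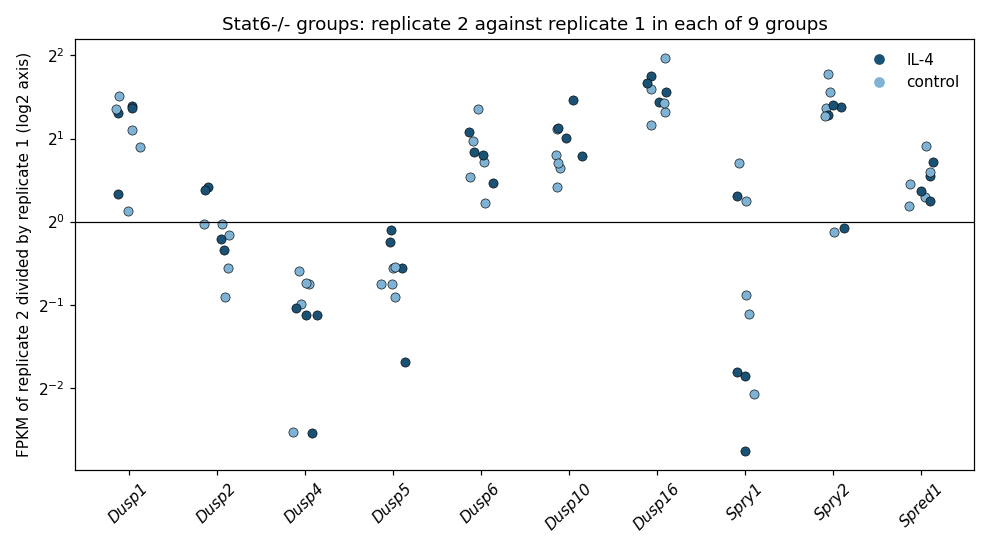
FPKM of Stat6-/- replicate 2 divided by that of replicate 1 (vertical axis, log2 scale) for each gene (horizontal axis) in the 9 Stat6-/- groups, controls in light blue and IL-4 in dark blue. All points of Dusp1, Dusp6, Dusp10, Dusp16 and Spred1 lie above the line at 1, and all those of Dusp4 and Dusp5 lie below it.

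Between genotypes without IL-4, averaged over the 5 control times, 2 of the 9 members passed as higher in Stat6-/- (8.03% of loci) and 1 as lower (13.3%). Dusp2 was higher by 0.24 ± 0.05 on the log2 scale (adjusted p = 0.00107), with 1.46 to 3.59 FPKM in the 10 Stat6-/- controls and a median of 2.59, beside 1.39 to 2.45 and a median of 1.94 in the 20 WT controls. Dusp5 was higher by 0.34 ± 0.09 (adjusted p = 0.00606), with a median of 1.95 FPKM beside 1.28. Dusp4 was lower by a log2 difference of -0.53 ± 0.17 (adjusted p = 0.0207), with 1.59 to 9.21 FPKM beside 5.09 to 8.45, and this was lost without any 1 of the 5 Stat6-/- control replicates 2 (adjusted p 0.065 to 0.136). The 10 Stat6-/- controls carried only 2 replicate numbers over 5 times, so they may not be 10 independent samples. For Dusp4, replicate 1 had 4.64, 5.39, 6.33, 5.51 and 9.21 FPKM from 0 to 24 h, within or near the WT range, and replicate 2 had 2.75, 2.71, 4.19, 3.29 and 1.59, below it. With 1 mean per replicate series, 2 against 4, an alternative added after the values were seen, none of the 3 passed (limma, adjusted p 0.281 for Dusp2, 0.356 for Dusp5 and 0.417 for Dusp4) and 2 of the 11146 loci did. If a number marks 1 animal or culture, the p-values over single libraries are too small. At an unadjusted p under 0.05 that fit had Dusp2 (0.0231) and Dusp5 (0.0421), beside 1465 of the 11146 loci. The ranges overlapped for all 3 genes. The summed level of the 3 neutrophil markers found was 118 to 263 FPKM in WT controls and 244 to 497 in Stat6-/- controls, that of the mast cell and basophil markers 0.269 to 0.89 and 0.93 to 2.1, and that of the 2 proliferation markers 17.8 to 62.3 and 11.5 to 30.8. Their part in these differences was not tested.

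In WT controls over time, no member passed against 0 h at 1 h (2.0% of loci), 3 h (0.144%) or 6 h (0.135%), and 2 of 9 passed at 24 h (17.2%). At an unadjusted p under 0.05, Dusp2 was higher at 1 h, Dusp5 at 3 h and both at 6 h. Dusp5 rose from 0.872, 0.676, 0.333 and 0.805 FPKM at 0 h to 2.16, 2.19, 2.14 and 1.7 at 24 h, without overlap (log2 change 0.87 ± 0.17, adjusted p = 0.000292). Dusp10 fell from 0.965, 1.16, 1.38 and 1.04 FPKM to 0.590, 0.663, 0.656 and 0.544 (log2 change -0.40 ± 0.13, adjusted p = 0.0349). The pass of Dusp10 was lost in 6 of the 8 fits without 1 library (adjusted p 0.0518 to 0.0958), all except those without 0 h replicate 1 or 4.

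The rest of the pathway was described by 4 lists. Over all loci tested, the shares that passed as higher and lower in WT, to be read beside the counts of each list, were 5.67% and 3.72% at 1 h, 16.4% and 12.5% at 3 h, 22.0% and 19.2% at 6 h, and 23.4% and 31.6% at 24 h. Of 16 other MAP kinase phosphatases and feedback inhibitors, 10 were tested, and in WT with IL-4 the numbers that passed as higher and lower were 1 and 1 at 1 h, 3 and 1 at 3 h, 3 and 2 at 6 h, and 4 and 3 at 24 h, with none called at 2-fold and median log2 changes of -0.07, -0.06, 0.06 and -0.06. Of 20 genes of the Ras-ERK cascade, 19 were tested, with 1 higher and 1 lower at 1 h, 3 and 4 at 3 h, 3 and 9 at 6 h, and 3 and 5 at 24 h, and medians of -0.01, -0.10, -0.03 and -0.07. Its called genes included the adaptor Shc1, at 43.0 ± 2.11 FPKM with IL-4 (SD, n = 3) and 19.7 ± 1.7 without (n = 4) at 24 h, and Rasa1, a GTPase-activating protein that switches Ras off, at 35.0 ± 5.47 and 16.7 ± 1.34. The adaptor Gab1 fell at 6 h, to 1.69 ± 0.381 FPKM from 5.2 ± 2.11 (adjusted p = 0.0193). Of 17 genes of the JNK and p38 cascades, 14 were tested, with 2 higher and 2 lower at 1 h, 2 and 3 at 3 h, 3 and 4 at 6 h, and 1 and 8 at 24 h, and medians of 0.03, -0.03, -0.03 and -0.36. The kinase gene Map3k8 rose at 1 h, to 34.6 ± 1.82 FPKM from 15.5 ± 1.59, and Mapkapk3, a kinase downstream of p38, at 6 h, to 75.8 ± 3.74 from 31.0 ± 1.66. Map3k5, a stress-activated kinase upstream of both cascades, fell at 6 h, to 1.77 ± 0.198 FPKM from 5.83 ± 0.139.

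The immediate-early list, of genes that MAP kinase activity induces, split in both directions. Of 20 genes, 17 were tested, with 5 higher and 4 lower at 1 h, 6 and 4 at 3 h, 10 and 2 at 6 h, and 9 and 2 at 24 h, and medians of -0.04, 0.30, 0.52 and 0.55. Fos fell at 3 h, to 21.1 ± 3.0 FPKM from 113 ± 11.1 (log2 change -2.37 ± 0.17, adjusted p = 1.14e-14), Nr4a1 at 3 h to 1.62 ± 0.326 from 7.22 ± 0.926, and Klf2 at 1 h to 2.43 ± 0.739 from 8.72 ± 1.49. Ier3 rose at 3 h, to 185 ± 27.5 FPKM from 9.26 ± 2.03, Egr2 at 6 h to 83.3 ± 10.3 from 4.54 ± 1.66, and Myc at 1 h to 31.5 ± 3.16 from 5.11 ± 0.472. In Stat6-/- cells Fos at 3 h was at 135 ± 8.82 FPKM with IL-4 and 127 ± 13.7 without (SD, n = 2). None of the 4 lists had a gene that passed in Stat6-/-.

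**Figure D4:**
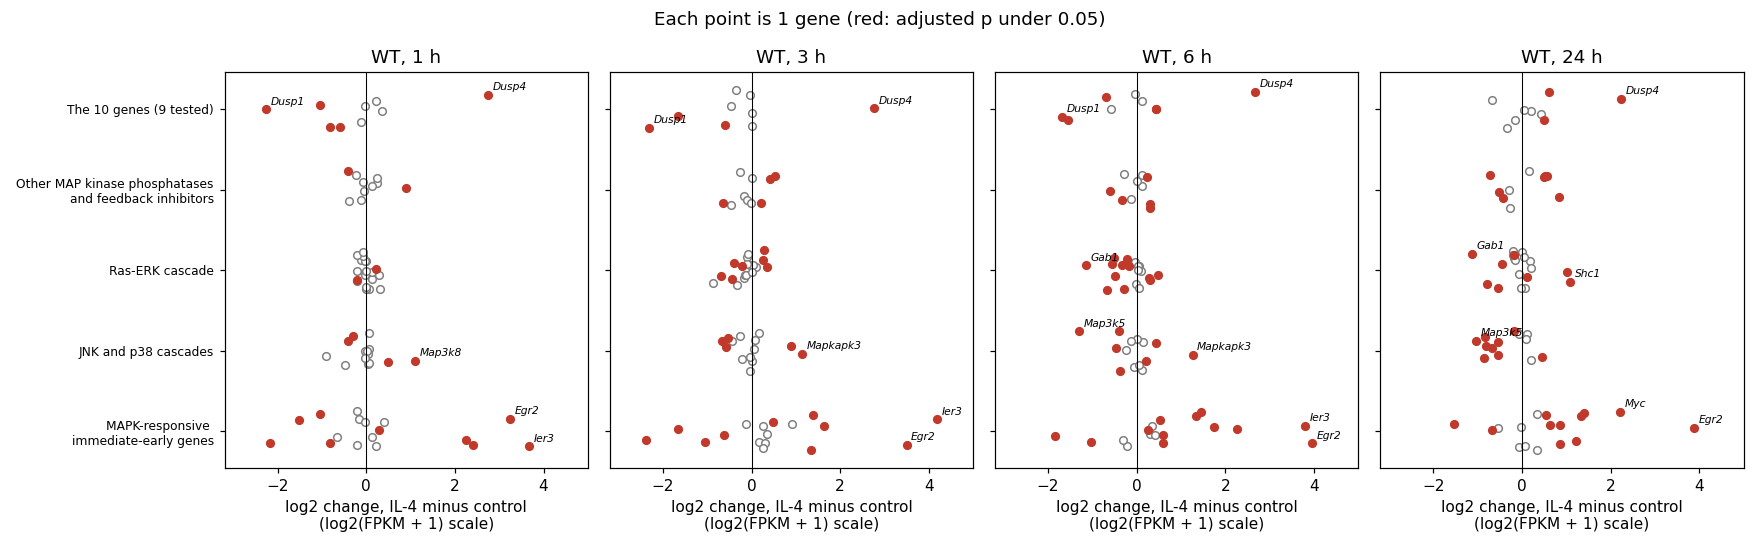
Log2 change with IL-4 in WT on the log2(FPKM + 1) scale (horizontal axis) at 1, 3, 6 and 24 h for the 9 tested brakes and the 4 lists (rows), with 1 point per gene, red where it passed at an adjusted p under 0.05 and named where it is among the 2 most changed of its row and past 2-fold. Among the brakes Dusp4 stands alone on the right at each time, and the immediate-early genes spread from Fos on the left to Ier3 and Egr2 on the right.

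The loci whose pattern over the 18 group means of log2(FPKM + 1) was most like that of a called member were searched among 718 loci whose means had an SD of at least 0.5. This is a description, since the groups share libraries. Dusp1 was most like Fos (Pearson r = 0.967), Spry2 (0.941) and Ptafr (0.911). Spry2 was most like Dusp1 (0.941), Fos (0.922) and Sgk1 (0.881). Dusp4 was most like Clec7a (0.982), Plekhf1 (0.978) and Prr15 (0.971).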

How the data were processed

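Polyadenylated RNA of BMDMs was sequenced. According to the submitters' processing notes, TopHat2 2.0.7, Cufflinks 2.0.2 and mm10 were used, and the authors deposited FPKM values, in 1 table for each sample. The gene annotation and the strand setting are not given in the sources used here. Because FPKM is scaled within a sample, a few abundant loci that change shift all the rest. After a join on locus, gene and start site, 4316 values that differed from 0 by rounding only were set to 0. Depth relative to the median sample was recovered from 7647 low loci. The 11146 loci that reached 1 FPKM in any sample were transformed as log2(FPKM + 1) and fitted together over all 53 samples, by limma 3.58.1 (R 4.3.3, 1 coefficient per group, eBayes with trend, 35 residual degrees of freedom). All tests were two-sided, with Benjamini-Hochberg adjustment over loci within each comparison. The fit was checked on simulated data with known changes. The members, the gene lists and the rule for named genes (all members, and in each list the called genes with the 3 largest rises and falls in WT) were chosen with earlier results of these data known. According to the study, WT values came from 4 individual animals and Stat6-/- values from 2 samples, of a purchased whole-body knockout. What a replicate number marks is not stated, so p-values measure the spread between these samples. The fit over all samples shares 1 spread per gene, so its WT p-values also carry the distance between the Stat6-/- replicates. Same-numbered treated and control samples deviated together in WT at 3 h (r from 0.316 to 0.479) and 6 h (0.105 to 0.561), and the replicate number was taken as a pairing there. At 1 h (lowest r 0.027) and 24 h (0.096) it was not, although the lowest r at 24 h was close to that at 6 h. The replicate block was 1 fit over all 53 samples, with the effect of a replicate number shared by all times of a genotype. Its p-values at 3 and 6 h therefore also rest on the number at 1 and 24 h. In Stat6-/- r was 0.881, 0.791, 0.855 and 0.9 at 1, 3, 6 and 24 h. With 2 samples per group the deviations mirror each other, so each time has 1 value. Alternatives were another pseudocount, other filters and scalings, Tukey's adjustment over 16 groups, a fit of only the samples compared, the replicate block, leaving out each sample and, for the genotypes, 1 mean per replicate series.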

Additional observations from a re-analysis of the deposited data

Results flagged for a closer look

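In 5 of the 80 sets of 4 WT samples (10 genes in 8 groups), 1 sample lay far from the other 3, where chance gives about 1 set in 20. Dusp1 in replicate 2 with IL-4 for 6 h was at 18 FPKM, above 9.71 to 10.9 in the others. Spred1 in replicate 2 with IL-4 for 3 h was at 40.2 FPKM, above 27.9 to 29.8. Dusp16 in control replicate 2 at 1 h was at 4.19 FPKM, above 3.16 to 3.31. In control replicate 4 at 24 h, Dusp4 was at 8.45 FPKM, above 6.5 to 6.63, and Dusp5 at 1.7, below 2.14 to 2.19.

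The WT response to IL-4 differed from the Stat6-/- response in 13 of 36 tests of the interaction in limma. At 1, 3, 6 and 24 h, 3, 4, 4 and 2 of the 9 members passed, beside 3.36%, 11.2%, 16.5% and 27.0% of loci. On the log2 scale the difference, WT minus Stat6-/-, was 2.43, 2.89, 2.65 and 2.33 for Dusp4 at 1, 3, 6 and 24 h. It was -2.30, -2.45 and -1.64 for Dusp1 at 1, 3 and 6 h, and -1.79 and -1.78 for Spry2 at 3 and 6 h. It was -0.70, 0.58 and 0.59 for Dusp2 at 1, 6 and 24 h, and -0.86 for Dusp5 at 3 h.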

How the results depend on the processing

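The number of members called in WT with IL-4 (3, 3, 3 and 1 at 1, 3, 6 and 24 h) became 5 and 4 at 1 and 3 h with a pseudocount of 0.1, and 5, 4, 6 and 3 with no threshold on the fold. Without 1 library it ranged from 2 to 3 at 1 h and did not move at the other times. For the difference of the responses (2, 3, 3 and 1 called), it became 4 at 1 and 3 h with the pseudocount of 0.1, 1, 2, 1 and 0 with only the samples compared, and 3, 4, 4 and 2 with no threshold on the fold. Without 1 library the range was 0 to 3, 2 to 3, 1 to 4 and 0 to 2. For WT controls at 24 h the 0 called became 1 with the pseudocount of 0.1 and 2 with no threshold, and for Stat6-/- against WT controls the 0 called became 3 with no threshold. Of the single member results, the difference of the responses for Dusp16, which did not pass, turned from negative to 0.16 at 3 h without Stat6-/- IL-4 replicate 2, to 0.10 at 3 h without Stat6-/- control replicate 1, and to 0.07 at 6 h without that control replicate, with the lowest values without 1 library at -1.06 and -1.39. With the replicate block, the counts called in WT were again 3, 3, 3 and 1, and no pass was lost. A further 24 member results passed, among them Dusp1 at 24 h (log2 change -0.67, adjusted p = 0.000144), Spred1 at 1 and 24 h (0.00919 and 0.00103) and Spry2 in the difference at 1 h (-1.34, 0.00138). In WT with IL-4, 6, 6, 7 and 7 of the 9 members passed with the block, beside 1908, 4580, 6154 and 7379 of the 11146 loci. In the main fit 1047, 3220, 4590 and 6131 loci did. In the difference, 5, 6, 7 and 5 members passed with the block, beside 841, 2381, 3362 and 5019 loci. For Dusp1 in the difference at 1 h the block gave an adjusted p of 2.42e-09. At 1 and 24 h at least 1 pair of same-numbered samples correlated by under 0.1 over all loci, so the number was not taken as a pairing there, although single genes such as Dusp1 kept their order of replicates. With only the samples compared, 11 member results gained a pass and 7 lost it. Scaling without the 10 most abundant loci moved the median of all loci in the comparison of 24 h with 1 h from -0.080 to -0.191. Tukey's adjustment ended the passes of Spry2 and Dusp5 at 1 h (adjusted p 0.11 and 0.102), Dusp5 at 3 h (0.102), Dusp6 and Dusp5 at 6 h (0.32 and 0.531) and Dusp5 at 24 h (0.138). Without the filter on low values, 5 passes were lost: Dusp5 in WT at 6 h (adjusted p = 0.0839), Dusp1 at 6 h (0.0861) and Dusp5 at 3 h (0.101) in the difference of the responses, Dusp10 in WT controls at 24 h (0.0691) and Spry2 between 24 h and 1 h (0.0927). The cause was not tested. Scaling without the 10 loci ended 3 passes, and quantile normalization and the pseudocount of 0.1 ended 1 each. Of the 40 member results that passed, 22 did so without any single library.

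No counting error is given, because the absolute depth is unknown. The number of fragments behind low values, as for Dusp5 in WT at 1 h and Spry1, is therefore not known. The Stat6-/- groups hold 2 samples each, and all groups share an estimate of the spread. The genotypes' controls were not compared with a replicate block, which was set within genotype. With 1 mean per replicate series, 3 of 3 passes there were lost.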
